A study of Mus musculus with 8 samples.

Results

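The genes of natural killer (NK) cell receptors and of cytotoxic granules were compared between spleens with and without Yaa, for Ncr1, Klrb1c, Klrk1, Klrd1, Klre1, Gzma, Gzmb, Prf1, Nkg7 and Eomes. All probe sets that the platform annotation gave to exactly 1 of these 10 symbols were taken, which gave 11 probe sets of the 45037 on the array other than controls. They covered 9 of the 28285 names on the array, where each probe set without a single symbol counted under its own name. The only probe set of Klrb1c was also annotated to another gene and was left out. All 11 passed the filter on dim probe sets, with mean signals between the 56.5th and the 94.7th percentile of the array. Where Prf1 and Eomes had 2 probe sets, the one with the higher mean signal stood for the gene. The samples were spleen cells of 8-week-old male mice after lysis of red cells, 1 array each. The 4 Yaa samples came from B6.SB-Yaa/J males, whose Y chromosome is known to carry a copy of an X segment with Tlr7, and the 4 wild-type samples from C57Bl/6J males. Each sample was 1 mouse except Yaa 3, which pooled the cells of 2 spleens. Only whole spleens were measured, so fewer cells of a type and less RNA per cell cannot be told apart.

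NK cells are lymphocytes that kill infected or transformed cells without prior immunization. Their surface receptors weigh activating signals, such as those from ligands that stressed cells display, against inhibitory signals from class I molecules. Killing follows when granules are released at the contact, where perforin opens the way for granzymes, proteases that start cell death in the target. Cytotoxic CD8 T cells use the same granule proteins, and in the spleen both cell types are minorities among B cells, helper T cells and red cell precursors.

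Of the 10 symbols, 9 had a promoter entry in the RefSeq table of build GRCm38.p6, which spans 250 bases before to 50 bases after a gene's start; Klrd1 had none. These windows were searched on both strands for the letters of 5 motif families, picked because their factors are known in lymphocytes or, for TATA, at gene starts. The RUNX letters, TGTGGTT, stood in windows of 5 of the 9 genes, where 6.09% of all genes with an entry hold them. The T-box letters, GGTGTGA, were in 1 of 9 (Nkg7), against 4.60% of all genes. For the ETS letters, AGGAAGT, the count was 1 of 9 (Prf1), against 10.7% of all genes. The STAT letters, TTCNNNGAA, were in Gzmb and Nkg7, against 9.55% of all genes, and the TATA letters, TATAAA, were in 0 of 9, against 15.7%. No matches in the same window overlapped. The RUNX letters were the most frequent match among these genes, in 6 windows of 2 granule proteases and 3 receptors. For this reason 1 such window of each of the 5 genes is printed; the other belongs to a second start of Ncr1. The sequences run 5′ to 3′ on the gene's strand, and capitals mark the RUNX letters (in Gzma on the opposite strand) and, at the end of the Gzmb window, the STAT letters.
Gzma, chr13:113100932-113101231, minus strand: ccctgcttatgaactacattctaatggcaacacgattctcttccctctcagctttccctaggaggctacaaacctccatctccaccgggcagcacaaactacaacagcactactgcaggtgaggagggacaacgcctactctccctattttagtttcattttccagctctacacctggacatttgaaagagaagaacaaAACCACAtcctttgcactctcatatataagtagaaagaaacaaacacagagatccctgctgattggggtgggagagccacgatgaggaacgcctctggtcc
Gzmb, chr14:56262285-56262584, minus strand: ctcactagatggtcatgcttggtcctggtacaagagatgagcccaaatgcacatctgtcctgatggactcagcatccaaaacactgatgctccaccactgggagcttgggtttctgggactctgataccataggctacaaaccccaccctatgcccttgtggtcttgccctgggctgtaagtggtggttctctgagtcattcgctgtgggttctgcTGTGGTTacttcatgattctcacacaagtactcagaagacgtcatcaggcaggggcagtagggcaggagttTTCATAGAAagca
Ncr1, chr7:4337465-4337764, plus strand: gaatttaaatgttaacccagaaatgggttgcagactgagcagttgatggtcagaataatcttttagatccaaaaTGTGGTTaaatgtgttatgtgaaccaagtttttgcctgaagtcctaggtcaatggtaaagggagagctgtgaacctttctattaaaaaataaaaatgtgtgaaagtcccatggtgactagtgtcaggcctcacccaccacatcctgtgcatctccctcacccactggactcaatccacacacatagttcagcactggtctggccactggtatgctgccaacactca
Klrk1, chr6:129623815-129624114, minus strand: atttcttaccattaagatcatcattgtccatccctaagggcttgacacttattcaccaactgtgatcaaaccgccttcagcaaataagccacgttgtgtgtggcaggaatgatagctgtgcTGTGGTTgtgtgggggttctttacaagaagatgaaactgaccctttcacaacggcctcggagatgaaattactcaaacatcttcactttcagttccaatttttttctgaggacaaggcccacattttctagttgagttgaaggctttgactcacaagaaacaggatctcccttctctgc
Klre1, chr6:129577963-129578262, plus strand: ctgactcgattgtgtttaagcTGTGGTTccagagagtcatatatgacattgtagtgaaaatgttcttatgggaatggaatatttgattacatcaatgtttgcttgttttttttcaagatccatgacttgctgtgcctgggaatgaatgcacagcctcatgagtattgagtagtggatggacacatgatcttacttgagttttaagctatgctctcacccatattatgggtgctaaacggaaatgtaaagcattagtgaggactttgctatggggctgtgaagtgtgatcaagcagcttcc
The RUNX letters begin 51 bases before the start in Gzma and 34 bases before it in Gzmb. They lie farther out in the receptor genes, beginning 129 bases before the start in Klrk1, 176 in Ncr1 (185 from its second start) and 229 in Klre1. A match of letters is a description of the sequence only.

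The arrays were not equally alike. The trimmed mean signal was 142 ± 26.6 (SD, n = 4) in Yaa and 163 ± 21.1 (SD, n = 4) in wild type (two-sided exact permutation p = 0.314 on log2 values), and all arrays were quantile normalized before comparison. The ratio of 3′ to 5′ signal of the Gapdh control, a sign of RNA quality, was 0.769 ± 0.0371 (SD, n = 4) in Yaa and 0.808 ± 0.0185 (SD, n = 4) in wild type (two-sided exact permutation p = 0.143). That of the Actb control was 1.33 ± 0.0518 (SD, n = 4) in Yaa and 1.32 ± 0.00841 (SD, n = 4) in wild type (two-sided exact permutation p = 0.886). On the first principal component, which held 56.8% of the variance, Yaa 2 lay at 68.8 and Yaa 3 at -92.4, while the other 6 samples spanned -18.4 to 20.0. In Yaa 3 the summed signal of 12 tested T cell markers was 710.1 and that of 10 tested B cell markers was 807.9. The other Yaa samples had 8208 to 14759 for the T cell markers, and the wild-type samples had 6578 to 11514. For the B cell markers these ranges were 16162 to 28519 in the other Yaa samples and 16506 to 22970 in wild type. The NK and granule results are therefore given with and without Yaa 3.

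None of these genes passed the test between the groups, and Yaa 3 was the highest sample for each of them. By limma with Benjamini-Hochberg adjustment over all 22518 tested probe sets, 0 of 9 genes passed the threshold, with adjusted p from 0.997 to 0.9998. Over all probe sets the test called 0.00444% higher in Yaa and 0% lower. At an unadjusted p under 0.05 it listed 1 of the 9, Nkg7, as higher and 0 as lower, where 2.97% of all tested probe sets were higher, 1.76% lower and 4.73% either. With array weights, which gave Yaa 2 and Yaa 3 less influence, 0 of 9 passed, against 0.453% of all tested probe sets higher and 0.182% lower. The median log2 fold change of the 9 genes was 0.28, against -0.011 over all tested probe sets, with 8 genes higher in Yaa by their means and 1 lower; 47.6% of all tested probe sets had a positive difference. In none of the 9 did the groups stand fully apart, which 4.1% of all tested probe sets did (2.43% higher and 1.67% lower in Yaa). Signals below are quantile-normalized MAS5 signals, and fold changes are on the scale of log2(signal + 16), on which differences between dim signals come out smaller than they are.

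**Figure D1:**
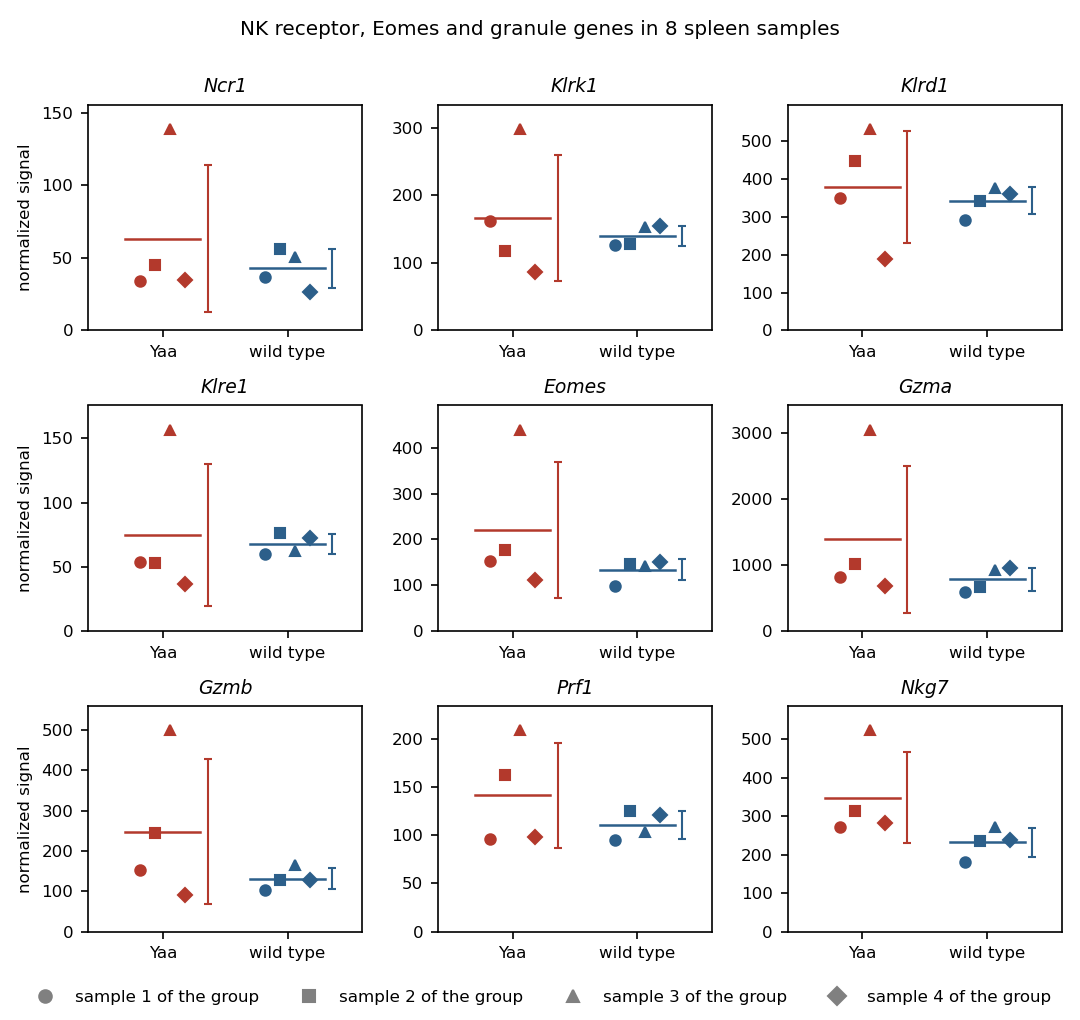
Normalized signal of the 9 genes in each sample, with Yaa at the left and wild type at the right of each panel and a linear axis from 0. Points are samples, with the marker giving the sample number, horizontal lines are group means and bars are 1 SD (n = 4). Yaa 3, the triangle in the Yaa column, is the highest of all 8 samples in each panel.

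Among the receptors, Ncr1 encodes NKp46, an activating receptor found on nearly all NK cells. Its signal was 34.2, 44.8, 138.8 and 34.8 in Yaa 1 to 4, against 37.0, 56.4, 50.9 and 26.6 in wild type 1 to 4. Yaa 3 lay above all others, and the other Yaa samples lay within the wild-type range. For Ncr1 the difference was 0.28 ± 0.37 on the log2 scale (SE; limma adjusted p = 0.997) with all samples and -0.098 without Yaa 3.

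Klrk1 encodes NKG2D, an activating receptor for ligands that stressed or infected cells put on their surface. Its signal was 161.8, 118.3, 298.0 and 86.9 in Yaa 1 to 4, against 126.3, 127.7, 152.3 and 153.9 in wild type 1 to 4. The wild-type samples differed by 1.22-fold between the highest and the lowest, and the Yaa samples by 3.43-fold. Yaa 1 and Yaa 3 lay above the wild-type range, Yaa 2 and Yaa 4 below it. Between the groups the log2 fold change was 0.10 ± 0.31 (SE; limma adjusted p = 0.997), with a 95% confidence interval of -0.59 to 0.79. Without Yaa 3 its sign turned, at -0.20.

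Klrd1 encodes CD94, which pairs with NKG2 chains to read the non-classical class I molecule Qa-1. Its signal was 348.9, 446.7, 531.4 and 187.9 in Yaa 1 to 4, against 292.5, 340.3, 376.6 and 360.6 in wild type 1 to 4. Yaa 2 and Yaa 3 lay above the wild-type samples and Yaa 4 below them, at 0.549 of the wild-type mean. The log2 fold change was 0.053 ± 0.28 (SE; limma adjusted p = 0.998). Its sign turned in 7 of 19 alternative settings, among them without Yaa 3, at -0.13, and with the signals as deposited, at -0.17.

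Klre1 encodes a lectin-like receptor of NK cells that lies, like Klrk1 and Klrd1, on chromosome 6 in mouse. Its signal was 53.5, 52.9, 156.8 and 36.6 in Yaa 1 to 4, against 60.3, 76.0, 62.3 and 72.1 in wild type 1 to 4. The samples Yaa 1, Yaa 2 and Yaa 4 were lower than every wild-type sample, while Yaa 3 was above all of them. Its log2 fold change was -0.039 ± 0.33 (SE; limma adjusted p = 0.9998) with all samples. Without Yaa 3 it was -0.40 ± 0.16 (SE; limma unadjusted p = 0.032, adjusted p = 0.672), where 6.93% of all tested probe sets had an unadjusted p under 0.05.

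The transcription factor gene Eomes encodes eomesodermin, a T-box factor that NK cells need to mature and that memory CD8 T cells also express. The brighter probe set had 153.0, 178.1, 440.0 and 112.2 in Yaa 1 to 4, against 99.0, 145.6, 141.1 and 150.4 in wild type 1 to 4. Yaa 1, Yaa 2 and Yaa 3 lay above the wild-type range, and Yaa 4 lay inside it. The log2 fold change was 0.49 ± 0.35 (SE; limma adjusted p = 0.997), and the second probe set of Eomes had 0.61 ± 0.33 (SE; limma adjusted p = 0.997), with Yaa 3 again the highest. Without Yaa 3 these values were 0.12 and 0.25.

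Of the granule genes, Gzma encodes granzyme A, a protease that cuts after basic residues. Its signal was 825.6, 1009.7, 3050.5 and 685.3 in Yaa 1 to 4, against 594.5, 669.6, 917.6 and 949.9 in wild type 1 to 4. Yaa 3 was 3.90 times the wild-type mean, and Yaa 2 was the only other sample above the wild-type range. For Gzma the log2 fold change was 0.57 ± 0.42 (SE; limma adjusted p = 0.997), with a 95% confidence interval of -0.38 to 1.53, and it was 0.11 without Yaa 3.

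Gzmb encodes granzyme B, which cuts after aspartate and activates caspases in the target cell. Its signal was 152.9, 245.6, 499.0 and 91.4 in Yaa 1 to 4, against 102.2, 128.0, 164.9 and 128.2 in wild type 1 to 4. The Yaa samples spanned a 5.46-fold range, the widest of the 9 genes, with Yaa 2 and Yaa 3 above the wild-type samples and Yaa 4 below them. For Gzmb the log2 fold change was 0.62 ± 0.42 (SE; limma adjusted p = 0.997), with a 95% confidence interval of -0.33 to 1.56. It was 0.21 without Yaa 3 and 0.97 without Yaa 4 (limma unadjusted p = 0.027, adjusted p = 0.865), a fit in which 5.12% of all tested probe sets had an unadjusted p under 0.05.

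Prf1 encodes perforin, the pore-forming protein of the granules. Its brighter probe set had 96.0, 161.9, 208.7 and 98.02 in Yaa 1 to 4, against 94.7, 125.0, 102.8 and 120.9 in wild type 1 to 4. Yaa 2 and Yaa 3 lay above the wild-type samples, and Yaa 1 and Yaa 4 within their range. The log2 fold change was 0.25 ± 0.24 (SE; limma adjusted p = 0.997), and 0.059 without Yaa 3. The second probe set of Prf1 had 0.16 ± 0.22 (SE; limma adjusted p = 0.997) and was the only one of the 11 not highest in Yaa 3: its signal there was 49.1, against 49.6 in Yaa 1. With limma array weights the probe sets of Prf1 disagreed in sign, at -0.12 ± 0.15 (SE) for the brighter and 0.26 ± 0.24 (SE) for the other.

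Nkg7 encodes a granule membrane protein known to be needed for granule release in mouse NK and CD8 T cells. Its signal was 272.6, 314.5, 523.3 and 282.1 in Yaa 1 to 4, against 180.5, 236.2, 272.8 and 237.0 in wild type 1 to 4. Yaa 2, Yaa 3 and Yaa 4 lay above all wild-type samples, and Yaa 1 lay 0.2 signal units below wild type 3. The log2 fold change was 0.52 ± 0.22 (SE; limma unadjusted p = 0.043, adjusted p = 0.997), with a 95% confidence interval of 0.019 to 1.02. It kept its sign in all 19 alternative settings, at 0.26 to 0.62, and was 0.32 without Yaa 3 and 0.26 without Yaa 2 and Yaa 3. Some of the 19, such as other filters and the replicate block, cannot change the estimate of 0.52.

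Across the 9 genes, Yaa 3 was the highest of the 8 samples in 9, at 1.55 to 3.90 times the wild-type mean after quantile normalization. Before it, Yaa 3 had the lowest trimmed mean signal of all arrays, 106.8, against 135.8 to 193.0 in the others, so these folds depend on the scaling. Yaa 3 lay above all wild-type samples in 38.5% of all tested probe sets, and above all other samples in 30.8%. A high value in this sample was thus common on the array. Yaa 4 lay below all wild-type samples in 4 of 9 (Klrk1, Klrd1, Klre1 and Gzmb), against 22.1% of all tested probe sets, and was the lowest of the 8 samples in the same 4, against 8.69%. Without Yaa 3 the median log2 fold change of the 9 genes was 0.059 and with array weights it was -0.023. Without Yaa 2 and Yaa 3 it was -0.16, with 8 of 9 lower by their means and Nkg7 higher. This count used the brighter probe sets, while the second ones of Prf1 and Eomes had 0.21 and 0.089 without these samples. In these fits 0 of 9 passed limma's adjusted threshold.

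**Figure D2:**
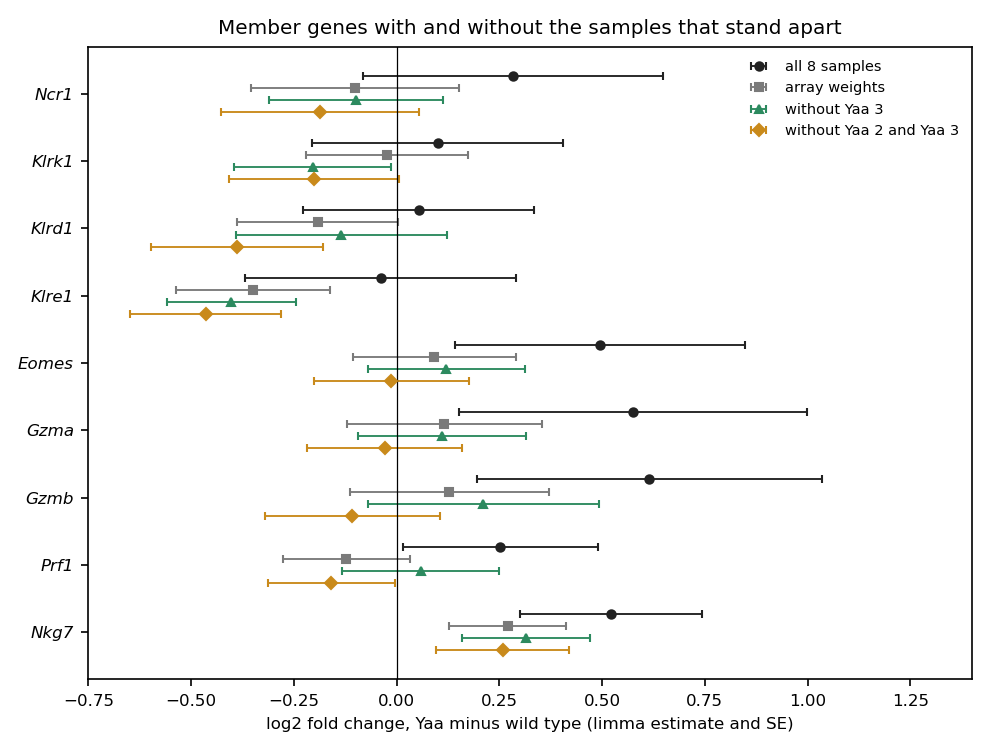
Log2 fold change (Yaa minus wild type) of the 9 genes, as limma estimates with SE, from all 8 samples (4 against 4), with array weights, without Yaa 3 and without Yaa 2 and Yaa 3. Each gene is drawn by the probe set that stands for it. As Yaa 3 is the highest sample in each, the estimates of all 9 genes lie further left without it. By these probe sets Nkg7 is the only gene to the right of 0 in all 4 fits. The second probe sets of Prf1 and Eomes, not drawn, also lay right of 0 in all 4, at 0.21 and 0.089 without Yaa 2 and Yaa 3.

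By their medians the granule genes differed more between the groups than the receptor genes, a contrast that was not tested. The median log2 fold change was 0.55 over the 4 granule genes and 0.077 over the 4 receptor genes. Within each array, the mean log2 signal of the granule genes less that of the receptor genes was 1.09, 1.48, 1.34 and 1.38 in Yaa 1 to 4, against 0.79, 0.84, 1.02 and 1.08 in wild type 1 to 4. The mean was 1.32 ± 0.17 (SD, n = 4) in Yaa and 0.93 ± 0.14 (SD, n = 4) in wild type, a difference of 0.39. All Yaa samples lay above all wild-type samples, but Yaa 1 and wild type 4 were nearly level. This contrast was chosen after the values were seen, and it is a description with no test. Leaving out single samples or genes, or changing the scaling or the added constant, gave 0.34 to 0.47. The groups overlapped, however, with log2(signal + 1) and in 5 of 8 cases in which 1 gene was left out. By mean log2 signal, Yaa 3 was highest in both kinds of gene. By the same means Yaa 4 was lowest in the receptor genes and within the wild-type range in the granule genes. Among single genes, Yaa 4 was below the wild-type range in Gzmb and above it in Nkg7, and wild type 4 was the lowest in Ncr1. Without Yaa 3 the difference between the groups was 0.38.

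**Figure D3:**
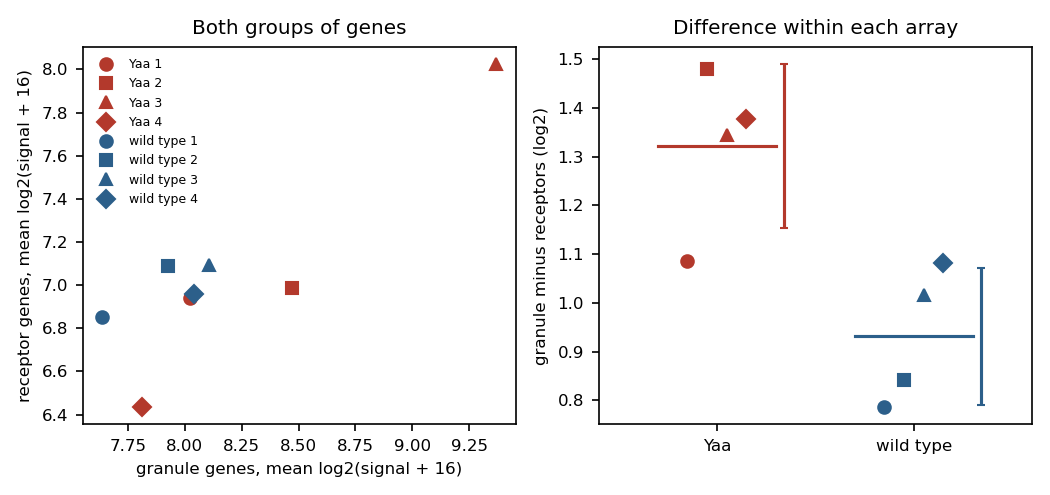
Left, mean log2(signal + 16) of the 4 receptor genes against that of the 4 granule genes in each sample; right, granule minus receptor genes within each array, with group means as lines and SD as bars (n = 4). Yaa 3 is highest and Yaa 4 lowest in receptor genes, whereas the difference is 1.09 to 1.48 in Yaa and 0.79 to 1.08 in wild type.

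The 9 genes varied together over the 8 samples, mostly through Yaa 3. Over the 36 pairs of genes the Pearson correlation of log2 signals had a median of 0.83 (range 0.56 to 0.97, n = 8 samples), and without Yaa 3 a median of 0.42 (range -0.45 to 0.85, n = 7 samples). The closest pair was Gzma and Eomes, at 0.97 with all samples and 0.83 without Yaa 3. Klre1 and Nkg7 were the least alike without Yaa 3, at -0.45. All pairs share the same 8 arrays and their normalization, so these values are descriptions only.

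Many other genes correlated closely with the 9 over the samples. Of 10331 other genes, 104 had a correlation over 0.9 with the mean of the standardized member signals. The 10 most alike, at 0.97 to 0.99 over 8 samples, were Ckb, Ptdss1, Adgre1, Mitf, Tmem26, Treml4, Aif1, Selenon, Sirpa and Csf1r. All 10 were highest in Yaa 3 and 5 of them were lowest in Yaa 4. They include textbook genes of macrophages: Adgre1 encodes F4/80, Csf1r the receptor for the growth factor CSF1, Sirpa the receptor for the signal CD47, and Aif1 the actin-binding protein Iba1. Without Yaa 3 these correlations were 0.85 to 0.96. Adgre1 had signals of 399.3, 408.8, 815.6 and 252.6 in Yaa 1 to 4, against 307.6, 362.8, 346.1 and 375.4 in wild type 1 to 4, and thus shared both the high value in Yaa 3 and the low value in Yaa 4.

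Markers of other cells moved with these samples. In Yaa 3 the T cell markers, Cd3e among them, were far below the other samples: Cd3e had 378.9, 517.1, 6.61 and 216.6 in Yaa 1 to 4, against 287.1, 292.1, 380.8 and 382.4 in wild type 1 to 4. The CD8 gene Cd8a had 292.9, 373.1, 42.7 and 261.8 in Yaa 1 to 4, against 207.5, 208.2, 276.6 and 215.3 in wild type 1 to 4. The genes that NK and CD8 T cells share (Gzma, Gzmb, Prf1, Nkg7 and Eomes) were thus highest in the sample in which Cd3e and Cd8a were lowest. All 12 tested T cell markers and all 10 tested B cell markers were below every wild-type sample in Yaa 3. The B cell receptor gene Cd79a had 18.4 there, against 2374 to 3997 in wild type. Of 11 tested monocyte and macrophage markers 11 were above every wild-type sample in Yaa 3, with a summed signal of 9241 to 23741 in Yaa and 7864 to 8756 in wild type. The summed signal of 11 tested neutrophil markers was 12852 to 55881 in Yaa and 8552 to 14256 in wild type, and it was highest in Yaa 1, not in Yaa 3. Yaa 2 had the lowest summed signal of 7 tested erythroid markers, 11325, against 32266 to 40574 in wild type. For 5 tested mast cell and basophil markers the summed signal was 332.7 to 617.6 in Yaa and 259.0 to 319.1 in wild type. The 10 tested heat shock and early response genes summed to 25214 to 35750 in Yaa, highest in Yaa 4, and to 19160 to 20158 in wild type. The heat shock genes among them had log2 fold changes of 0.33 (Dnajb1) to 2.15 (Hspa1a). Those of the early response genes Ier2, Fos, Junb, Jun and Egr1 were -0.17 to 0.010. Of these 10 genes limma called 0, or 3 with array weights. With array weights it also called 10 of 11 neutrophil, 3 of 11 monocyte and macrophage and 1 of 5 mast cell and basophil markers. It called 0 of the T cell, B cell and erythroid markers. Over all tested probe sets the fit with array weights called 0.453% higher and 0.182% lower. No marker of these lists was at a signal of 0, but the lowest deposited signal of the whole array was 0.0296, so none could be. In Yaa 3 the normalized signal was 0.87 for Ms4a1, 3.67 for Cr2, 4.47 for Cd3g and 4.85 for Cd8b1. The part of these other cells in the NK and granule values was not tested.

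**Figure D4:**
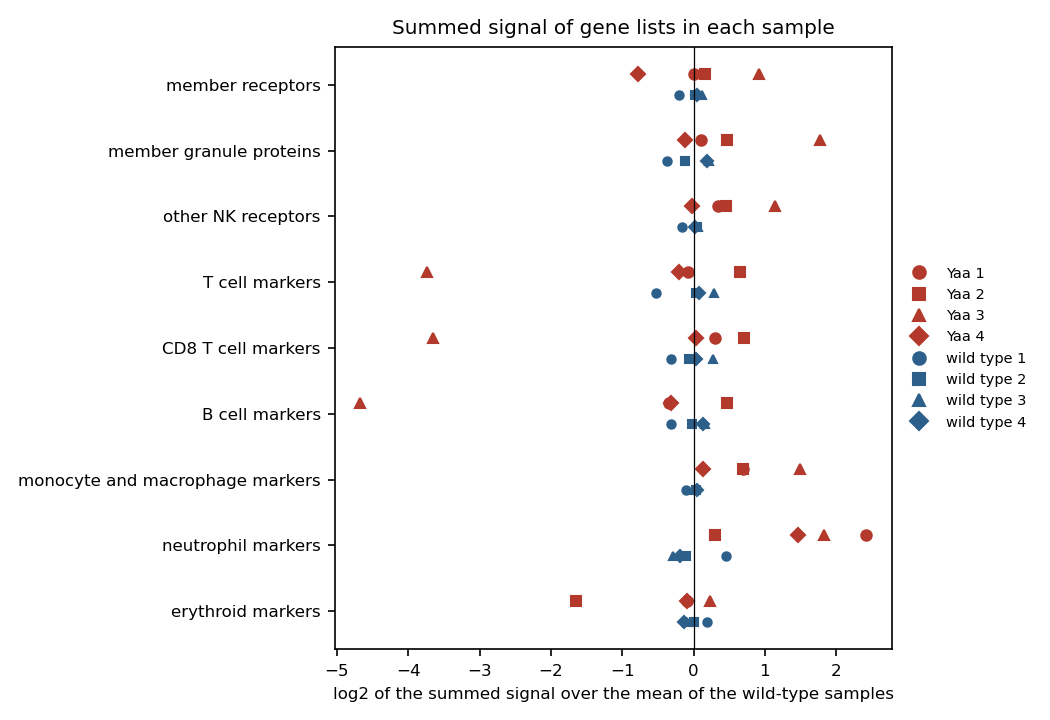
Log2 of the summed signal of each gene list over the mean of the wild-type samples, with the 4 Yaa samples in red above the 4 wild-type samples in blue. In Yaa 3 the member receptors, member granule genes and other NK receptors lie right of 0, while the T, CD8 T and B cell markers lie far to the left.

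Other NK receptors followed the members in part. Of 29 listed genes 14 were tested, of which 12 had higher means in Yaa (against 47.6% of all tested probe sets) and 2 lower, with a median log2 fold change of 0.34. limma called 0 of 14 over all probe sets and listed 3 at an unadjusted p under 0.05, which 4.73% of all tested probe sets reached. Klra17, on the list as one of the Ly49 family, had 75.5, 110.1, 125.7 and 77.3 in Yaa 1 to 4, against 59.6, 50.7, 55.0 and 59.0 in wild type 1 to 4. The groups did not overlap, and the log2 fold change was 0.63 ± 0.17 (SE; limma adjusted p = 0.748), with 0.51 without Yaa 3. Ly49 genes are much alike in sequence, so the probe set may read several of them. The other tested genes named Klra did not share the difference. Klra2 had 0.17, Klra7 0.039 and Klra8 0.063, or 0.0016, -0.31 and -0.56 without Yaa 3. Which spleen cells gave the Klra17 signal was not measured. Fcgr3, an Fc receptor by which NK cells and phagocytes sense antibody, also stood apart, with 0.62 ± 0.24 (SE; limma adjusted p = 0.997). Such a separation with Yaa higher was found in 2.43% of all tested probe sets. Cd244a, the receptor 2B4, had 0.65 and Klrg1, an inhibitory receptor of mature NK cells, had 0.44. Without Yaa 3 the values were 0.39 for Fcgr3, 0.38 for Cd244a and 0.27 for Klrg1. Without Yaa 3 the median of the 14 genes was 0.17, with 10 higher and 4 lower, and without Yaa 2 and Yaa 3 it was 0.043.

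The direction of the adaptors through which NK receptors signal depended on Yaa 3. Of 14 tested adaptors and kinases 6 had higher and 8 lower means, with a median log2 fold change of -0.062, and limma called 0. Without Yaa 3 the median was 0.23, with 11 higher and 3 lower. Fcer1g, a chain that carries the signal of NKp46, had 721.9, 765.1, 1060.8 and 439.8 in Yaa 1 to 4, against 436.4, 467.8, 475.4 and 451.4 in wild type 1 to 4, which gave 0.62 ± 0.23 on the log2 scale (SE; limma adjusted p = 0.997). Tyrobp, which encodes DAP12, had 0.55, Lcp2 had 0.35 and the kinase gene Txk had 0.27. These genes had the lowest p of the 14 and all were higher, so they do not stand for the list. The lowest of the 8 lower genes was Cd247, at -0.39, or 0.28 without Yaa 3. Without Yaa 3, Fcer1g had 0.44 and Tyrobp 0.33. Phagocytes also express Fcer1g and Tyrobp, and both were highest in Yaa 3.

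Among transcription factors beside Eomes, Nfil3 differed most by size of those named. Of 10 tested genes 6 had higher and 4 lower means, with a median log2 fold change of 0.17, and 3 had an unadjusted p under 0.05, against 4.73% of all tested probe sets. Leaving out Yaa 3 gave a median of 0.34, with 8 higher and 2 lower. Nfil3, a factor needed for NK development in mouse, had 168.5, 199.8, 178.4 and 76.1 in Yaa 1 to 4, against 19.0, 77.1, 88.0 and 68.8 in wild type 1 to 4. Wild type 1 was the lowest, and the log2 fold change was 1.16 ± 0.39 (SE; limma adjusted p = 0.960), or 1.07 without Yaa 3. Id2, a partner of E proteins that innate lymphocytes require, had 0.83 ± 0.31 (SE; limma adjusted p = 0.997). Tbx21, which encodes T-bet, the T-box relative of Eomes, had 66.9, 79.7, 149.0 and 52.7 in Yaa 1 to 4, against 23.1, 45.4, 61.9 and 51.1 in wild type 1 to 4. Its log2 fold change was 0.71 ± 0.30 (SE; limma adjusted p = 0.997), with Yaa 3 the highest sample as for Eomes, and 0.46 without Yaa 3. Prdm1, which encodes Blimp-1, had 0.28. With Yaa 3 left out, Id2 had 0.62 and Prdm1 had 0.20.

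Cytokine receptors of NK cells, other granule proteins and the release machinery showed no shared direction. Of 6 tested cytokine receptor genes 3 were higher and 3 lower, with Il2rb, the beta chain for interleukins 2 and 15, at 0.52 ± 0.24 (SE; limma adjusted p = 0.997), Il18r1 at -0.17, Il18rap at 0.35 and Il12rb1 at -0.072. Without Yaa 3, Il2rb had 0.41, Il18rap turned to -0.025, Il18r1 had -0.098 and Il12rb1 had -0.065. The count was still 3 and 3. Of 7 tested granule proteins outside the members 5 were higher and 2 lower, with a median of 0.13, against 0.55 for the 4 member genes; Gzmm had 0.44, Ctsw 0.23, Serpinb9, an inhibitor of granzyme B, 0.21 and Serpinb6b 0.13. Without Yaa 3, Gzmm had 0.64, Ctsw had 0.18, Serpinb9 turned to -0.11, Serpinb6b had 0.030 and the median of the 7 was 0.030. Of 10 tested genes of granule release 6 were higher and 4 lower. Stx11, a syntaxin of granule fusion, had 388.0, 378.9, 624.9 and 344.2 in Yaa 1 to 4, against 297.7, 307.7, 279.4 and 290.5 in wild type 1 to 4. For Stx11 the groups did not overlap, a separation that 2.43% of all tested probe sets showed with Yaa higher. Its log2 fold change was 0.50 ± 0.19 (SE; limma adjusted p = 0.997), while Unc13d, a priming factor of the same step, had -0.20, Snap23 0.14 and Vamp8 -0.16. Without Yaa 3 these were 0.32 for Stx11, -0.12 for Unc13d, 0.19 for Snap23 and -0.27 for Vamp8.

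Effector genes and the ligands of NK receptors gave no calls. Of 7 tested cytokine, chemokine and death ligand genes 6 were higher in Yaa by their means and the median was 0.41 on the log2 scale, and limma called 0. The chemokine gene Ccl3 did not overlap between the groups, at 506.3, 767.3, 605.0 and 423.3 in Yaa 1 to 4, against 418.5, 411.4, 414.1 and 323.4 in wild type 1 to 4. Over all tested probe sets 2.43% stood apart with Yaa higher. On the log2 scale Ccl3 had 0.51, Tnf had 0.62, Ifng, the interferon of NK and T cells, had 0.29 and Lta had -0.73. When Yaa 3 was left out, the median of the 7 was 0.19. Ccl3 then had 0.48, Tnf 0.50, Ifng 0.28 and Lta -0.32. Of the ligands 3 of 13 were tested: Pvr, which binds CD226, had 0.26, Cd48, which binds 2B4, had 0.15, and Clec2i, a lectin ligand of the Klrb1 family, had -0.77, with all Yaa samples below all wild-type samples. Yaa 3 was the lowest, and without it Clec2i had -0.37. A separation with Yaa lower was found in 1.67% of all tested probe sets.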

How the data were processed

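Spleen cell RNA of 4 Yaa and 4 wild-type mouse samples was measured on Affymetrix arrays, 1 per sample. Per the submitters' processing notes the authors deposited MAS5 signals, which are linear intensity values, and their version, scaling target and filters were not stated in the sources. The table held 45101 probe sets, 64 of them controls. Trimmed means (2% at each end left out) differed by more than 10% from their median, so arrays were quantile normalized and taken as log2(signal + 16). Controls were dropped, as were probe sets no brighter on average than the array's median probe set, leaving 22518 for testing. The groups were compared by limma 3.58.1 (R 4.3.3; lmFit, eBayes with a mean-variance trend), adjusted by Benjamini-Hochberg at a threshold of 0.05. The brightest tested probe set stood for a gene. Symbols were updated through Entrez IDs to GRCm38.p6 (34754 of 34958 probe sets with 1 symbol matched).

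The text names the member genes, the lowest-p genes of the other lists (at most 4 each), defining markers of other cells, and the 10 genes most alike. A few further genes of these lists are named beside them. The members and lists were chosen with earlier results of these data known. Replicate numbers were not shown to pair the samples, and the main comparison did not use them. Figures used matplotlib 3.10.9 under Python 3.11.15. The procedure was tested on simulated data. Alternatives were other constants, filters, scalings, variance models, array weights, a replicate block and left-out samples. The number of arrays limits the precision.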

Additional observations from a re-analysis of the deposited data

Results flagged for a closer look

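In 18 groups of 4 values (9 genes in 2 groups), 2 held a sample far from the other 3, where chance gives about 1 in 20 groups. The Ncr1 signal of 138.8 in Yaa 3 stood apart from the 34.2 to 44.8 of the other Yaa samples. The Eomes signal of 99.0 in wild type 1 stood below the 141.1 to 150.4 of the other wild-type samples.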

How the results depend on the processing

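No member gene passed the adjusted threshold in any of the 19 alternative settings (lowest adjusted p 0.476). The member median of 0.28 turned to -0.023 with array weights and -0.16 without Yaa 2 and Yaa 3, and was 0.10 with the signals as deposited. Of 169 gene results under an alternative, 144 kept their sign and 25 turned it. Other filters, the fit without a mean-variance trend and the replicate block cannot change an estimate, so part of the 144 was fixed in advance. The replicate numbers were not shown to pair the samples (correlations of deviations -0.37 to 0.016). With them as a block limma called 0 probe sets and 0 members. The median stayed at 0.28, as such a block cannot change the estimates. Against 1 probe set called over the array, limma called 0 with log2(signal + 1), 0 with a stricter filter on dim probe sets (which left Ncr1 and Klre1 untested), 143 with array weights, 103 without Yaa 2 and Yaa 3, and 1 to 31 with single samples left out, the most without Yaa 2; the cause was not tested. With single samples left out the member median ran from 0.059 to 0.44.

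The sign turned as follows. With log2(signal + 64), Klre1 had 0.0067. With the signals as deposited Klrk1 had -0.11 and Klrd1 -0.17, and with median-centred arrays -0.023 and -0.078. With array weights Ncr1 had -0.10, Klrk1 -0.023, Klrd1 -0.19 and Prf1 -0.12. Without Yaa 2 and Yaa 3, Ncr1 had -0.19, Klrk1 -0.20, Klrd1 -0.39, Gzma -0.029, Gzmb -0.11, Prf1 -0.16 and Eomes -0.013. The second probe sets of Prf1 and Eomes did not turn there, at 0.21 and 0.089. With single samples left out Ncr1 ran from -0.098 to 0.44, Klrk1 from -0.20 to 0.33, Klrd1 from -0.13 to 0.34 and Klre1 from -0.40 to 0.17, each lowest without Yaa 3. Klrd1 also turned without wild type 1, at -0.017, and without Yaa 2, at -0.054. Klre1 turned to 0.0079 without wild type 2, 0.036 without Yaa 1, 0.040 without Yaa 2 and 0.17 without Yaa 4.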
